A study of Schizosaccharomyces pombe with 15 samples.

Results

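Scr1 binding was examined at 6 genes of the glucose repression system of Schizosaccharomyces pombe: scr1 itself, the corepressor genes ssn6, tup11 and tup12, the activator gene rst2 and the regulator gene rsv1. The genes were chosen by name from the 5113 protein-coding genes annotated on chromosomes I, II and III. A peak was assigned to a gene if its summit lay in the gene or within 2000 bp upstream of its annotated start, in each of 6 lists of peaks from chromatin immunoprecipitation followed by sequencing (ChIP-seq). The lists came from 3 groups with 2 biological replicates each: Wilmar-P in molasses, laboratory S. pombe in molasses and Wilmar-P in 3% glucose. Wilmar-P is an industrial isolate used to ferment molasses, the sugar-rich residue of cane milling. It was labelled h90 scr1::TAP-KanMX6. The strain label of laboratory S. pombe was 972h- Scr1-TAP, whereas its genotype label gave mating type h+, the marker alleles ade6-m216, leu1-32 and ura4-d18 and the same scr1::TAP-KanMX6 allele, so the labels differ in mating type. All 3 groups therefore carried scr1 fused at its 3′ end to the TAP tag for tandem affinity purification, and the protein was precipitated with an antibody to protein A. An untagged strain was not analysed here, so signal that does not depend on Scr1 was not measured. Cells grown in rich medium with glucose were washed and moved to molasses or to fresh glucose medium for a few hours before crosslinking. Strain and mating type, with the nutritional markers of the laboratory strain, cannot be told apart in the comparison between strains.

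In fission yeast, glucose lowers the transcription of genes for the use of other carbon sources. Scr1 is a C2H2 zinc finger repressor of such genes and is related to Mig1 of budding yeast. Rst2 is the opposing C2H2 activator, which drives fbp1 and ste11 when glucose is scarce and is held back by the cAMP-dependent kinase Pka1. Ssn6, a protein of tetratricopeptide repeats, and the WD-repeat proteins Tup11 and Tup12 form the corepressor complex that DNA-bound repressors recruit. Rsv1 is a C2H2 zinc finger protein needed for survival when glucose runs out. From the reference genome, the encoded proteins had 565 (Scr1), 567 (Rst2), 428 (Rsv1), 1102 (Ssn6), 614 (Tup11) and 570 (Tup12) residues. Tup11 and Tup12 were identical at 46.5% of 553 aligned residues, and the zinc finger stretches of Scr1 and Rsv1 at 62.7% of 51.

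The peak lists held 56 peaks at the 6 genes, which fell into 24 sites when summits within 150 bp of each other were joined. Outside coding exons, scr1, rsv1 and ssn6 held peaks in all 6 lists. At rst2, a peak upstream of the gene was present in both Wilmar-P molasses lists, in neither laboratory list and, weakly, in 1 of the 2 glucose lists. At tup11 and tup12, neither Wilmar-P group had a peak. In the map of summits by distance from the gene start, the upstream filled markers of scr1 and rsv1 line up across the 6 lists. Those of ssn6 nearest to the gene start do so too.

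**Figure D1:**
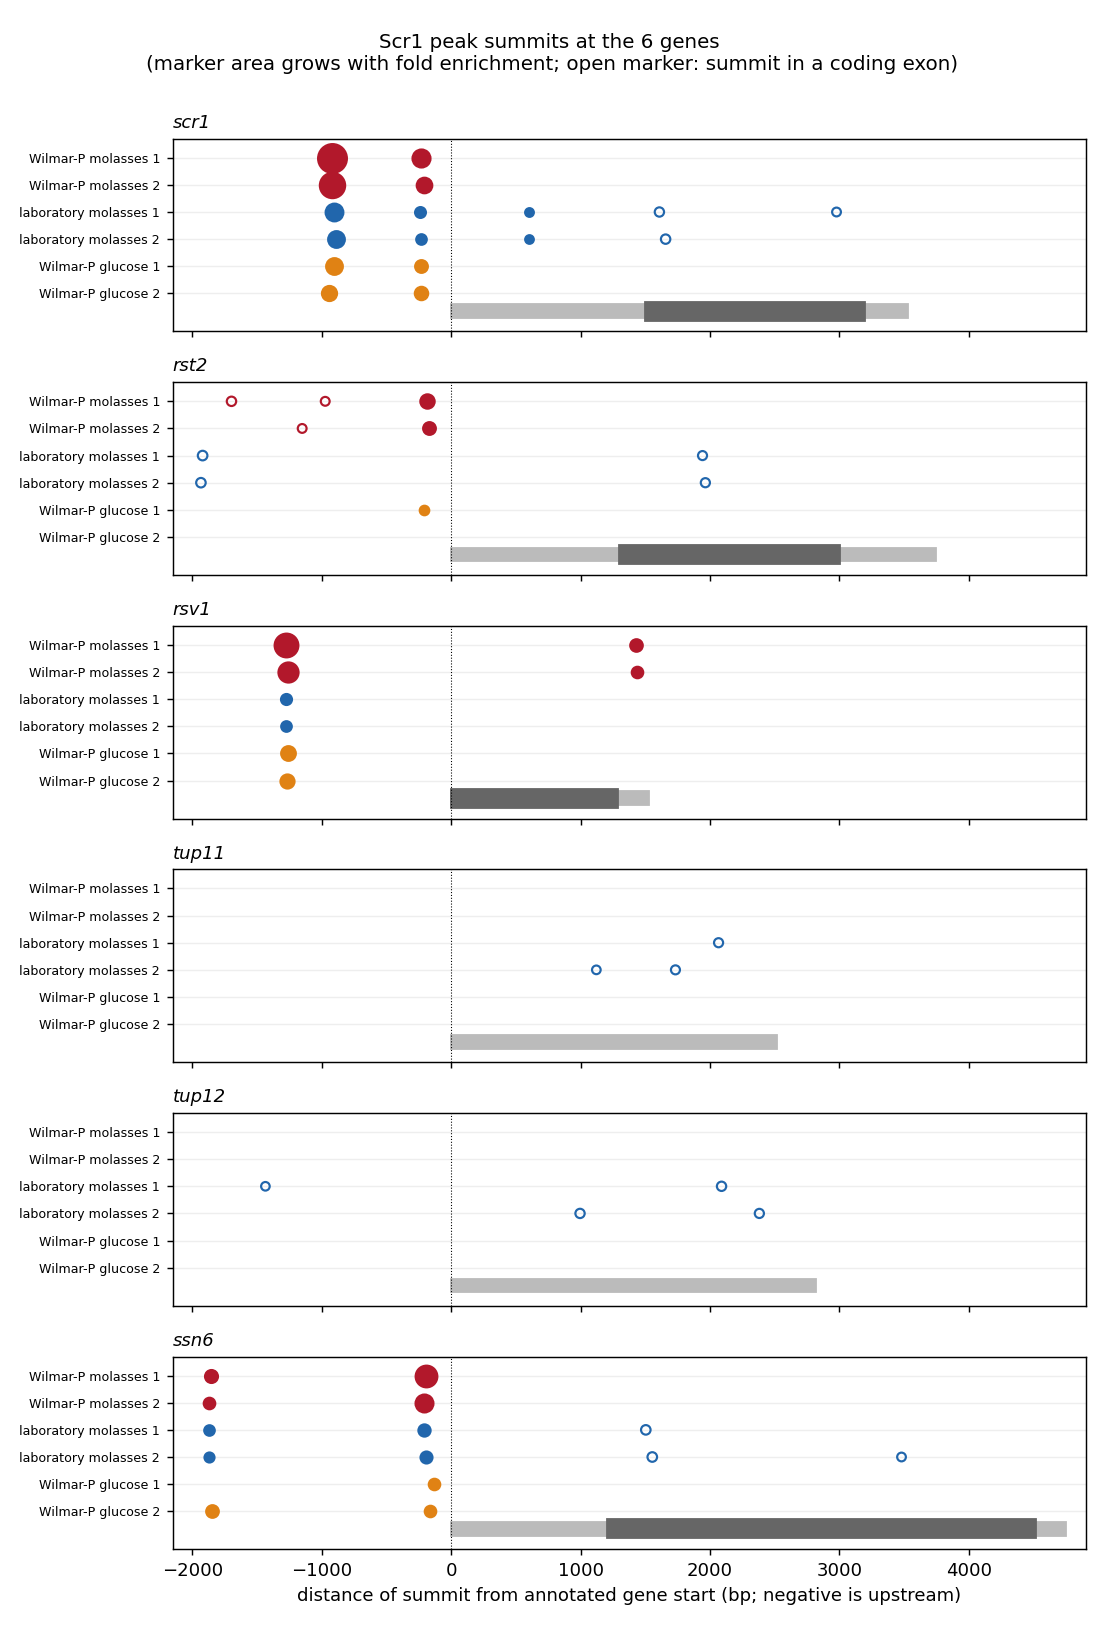
Position of every peak summit at the 6 genes, as the distance from the annotated gene start in bp (negative is upstream), with 1 line per list: Wilmar-P molasses (red), laboratory molasses (blue) and Wilmar-P glucose (orange). Marker area grows with fold enrichment, and open markers are summits in coding exons. The light bar is the annotated gene and the dark bar the coding sequence, drawn for the 4 genes with 1 coding exon. The upstream summits of scr1 and rsv1 and the proximal summit of ssn6 recur in all 6 lists. tup11 and tup12 have open markers in the laboratory lists alone.

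The sequences under the upstream sites that carry these results are shown, each 201 bp around the summit of Wilmar-P molasses replicate 1. They were read from the plus strand of the reference genome (RefSeq, ASM294v3), not from Wilmar-P, whose own sequence at these places was not analysed here. Capitals mark matches, on either strand, to the Mig1-type hexamer GTGGGG or its variants that begin with CT, GC or CC, to the stress response element CCCCTC to which Rst2 binds, and to the cAMP response core TGACGT to which Atf1 binds. No matches overlapped in these windows.
scr1 distal site, chrII:1751073-1751273: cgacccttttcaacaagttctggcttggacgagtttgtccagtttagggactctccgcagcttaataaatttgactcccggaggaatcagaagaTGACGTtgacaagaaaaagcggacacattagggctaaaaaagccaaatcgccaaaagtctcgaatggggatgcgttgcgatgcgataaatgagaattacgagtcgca
scr1 proximal site, chrII:1751763-1751963: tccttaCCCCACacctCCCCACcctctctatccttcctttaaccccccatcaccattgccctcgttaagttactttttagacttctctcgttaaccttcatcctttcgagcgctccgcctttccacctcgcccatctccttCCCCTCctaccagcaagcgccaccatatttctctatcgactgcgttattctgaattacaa
ssn6 proximal site, chrII:3862010-3862210: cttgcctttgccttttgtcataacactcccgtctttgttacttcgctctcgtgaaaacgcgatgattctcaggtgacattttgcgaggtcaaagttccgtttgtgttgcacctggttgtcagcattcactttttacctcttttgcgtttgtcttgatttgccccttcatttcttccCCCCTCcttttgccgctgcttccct
rst2 proximal site, chrI:1309398-1309598: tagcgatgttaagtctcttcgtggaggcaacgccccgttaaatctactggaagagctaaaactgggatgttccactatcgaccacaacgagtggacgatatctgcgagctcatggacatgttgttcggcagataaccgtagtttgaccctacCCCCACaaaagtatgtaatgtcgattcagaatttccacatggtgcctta
rsv1 upstream site, chrII:2887074-2887274: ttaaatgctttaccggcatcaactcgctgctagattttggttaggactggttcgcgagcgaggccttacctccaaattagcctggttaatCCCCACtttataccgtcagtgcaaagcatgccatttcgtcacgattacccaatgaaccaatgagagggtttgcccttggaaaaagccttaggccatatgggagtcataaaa
A Mig1-type hexamer was present at the rst2, rsv1 and scr1 proximal sites, each time as GTGGGG on the minus strand. Its centre was 8 bp from the summit at rsv1 and 55 bp from it at rst2. The scr1 proximal window held 2 copies, at 92 and 82 bp, and CCCCTC at 44 bp. The scr1 distal window, where enrichment was highest, held no Mig1-type hexamer but had TGACGT centred 4 bp from the summit. The ssn6 proximal window held CCCCTC at 79 bp and no Mig1-type hexamer. Of all non-overlapping 201 bp windows of the genome, 5.38% held a Mig1-type hexamer, 1.96% CCCCTC and 3.22% TGACGT. In the 2000 bp upstream of the gene starts, Mig1-type hexamers occurred 4 times at scr1, 5 times at rsv1, 1 time each at rst2 and tup11, and 0 times at tup12 and ssn6, while 39.8% of all genes had at least 1. A match describes the letters and not a binding event.

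scr1 encodes the precipitated repressor, and its own promoter region held the strongest peak of the 6 genes in every list. The gene (SPBC1D7.02C, chrII:1752093-1755619, plus strand) has an annotated 5′ untranslated region (UTR) of 1496 bp. The distal summits lay 886 to 939 bp upstream of the gene start, inside the non-coding RNA gene SPNCRNA.5338. Fold enrichment, the ratio of ChIP signal to local background computed by the authors, was 40.1 and 30.3 in Wilmar-P molasses, against 13.7 and 11.9 in laboratory molasses. In Wilmar-P glucose it was 11.9 and 9.26, so the Wilmar-P molasses values lay above all other lists. Regions called in every list compared also had a higher median enrichment in Wilmar-P molasses, as given below. By p-value the distal peak ranked 34 of 961 and 38 of 1073 in Wilmar-P molasses, against 23 of 4239 and 23 of 4479 in laboratory molasses. The ranks in Wilmar-P glucose were 22 of 386 and 15 of 228. The peak was thus among the leading peaks of each list, while its enrichment differed between groups. Among genes with a peak outside coding exons, the enrichment at scr1 exceeded that of 94.9% of 746 and 94.6% of 701 genes in Wilmar-P molasses, against 96.0% of 348 and 95.4% of 325 genes in laboratory molasses. In Wilmar-P glucose it exceeded that of 91.6% of 287 and 90.7% of 247 genes.

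A proximal summit of scr1 lay 211 to 243 bp upstream of the start, in SPNCRNA.5339, also in all 6 lists. Its enrichment was 14.2 and 10.01 in Wilmar-P molasses, against 3.68 and 3.34 in laboratory molasses and 5.93 and 6.78 in Wilmar-P glucose. The proximal site was weaker than the distal one in every list. As a share of the distal enrichment within the same list it was 0.353 and 0.330 in Wilmar-P molasses, against 0.268 and 0.282 in laboratory molasses. In Wilmar-P glucose this ratio was 0.4996 and 0.731, above both molasses groups but with a wide spread between replicates. Inside the gene, the laboratory lists alone held peaks: 1 in the 5′ UTR with an enrichment of 1.55 and 1.48, and peaks in the coding exon of 1.63 to 2.18.

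ssn6 encodes the repeat protein of the corepressor and had a proximal site in all 6 lists. The gene (SPBC23E6.09, chrII:3862300-3867052, plus strand) has a 5′ UTR of 1205 bp. The proximal summits lay 131 to 209 bp upstream of the start in the non-coding RNA gene SPNCRNA.6315. Enrichment was 21.7 and 14.02 in Wilmar-P molasses, against 5.26 and 4.97 in laboratory molasses and 4.37 and 4.38 in Wilmar-P glucose. The Wilmar-P molasses values lay above the other 4, as at both upstream sites of scr1. A distal site 1848 to 1866 bp upstream had an enrichment of 6.21 and 4.43 in Wilmar-P molasses, against 3.31 and 2.79 in laboratory molasses. In Wilmar-P glucose it was listed in replicate 2 alone, at 5.78.

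tup11 (SPAC18B11.10, chrI:299278-301796, minus strand) and tup12 (SPAC630.14C, chrI:374316-377137, minus strand) encode the other subunits of the corepressor. Neither had a peak in the 4 Wilmar-P lists. In the laboratory lists, tup11 had 1 and 2 peaks, with an enrichment of 1.90 in replicate 1 and of 1.82 and 1.48 in replicate 2. tup12 had 2 peaks in each laboratory list, with an enrichment of 2.11 and 1.44 in replicate 1 and of 2.09 and 1.96 in replicate 2. All 7 had their summit in a coding exon, 1 of them in that of gti1, a neighbour of tup12. The summits of tup11 did not recur within 150 bp between the replicates, nor did those of tup12.

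rst2 encodes the activator that opposes Scr1. The gene (SPAC6F12.02, chrI:1309681-1313429, plus strand) has a 5′ UTR of 1299 bp, and the proximal summits lay 174 to 207 bp upstream of its start. They were intergenic in Wilmar-P molasses, and the glucose summit lay at the edge of the non-coding RNA gene SPNCRNA.2572. In Wilmar-P molasses the enrichment was 8.13 and 5.93, with ranks of 259 of 961 and 274 of 1073. No laboratory list had a peak there, and the nearest laboratory peaks, in the coding exon of the upstream gene cdc48, ended 616 and 591 bp from the summit. In Wilmar-P glucose, replicate 1 listed the site at 2.31, rank 380 of 386, and replicate 2 did not list it. The site was called in both replicates of Wilmar-P molasses, with an irreproducible discovery rate (IDR) of 2.09e-05 for the pair. Among genes with a peak outside coding exons, it exceeded 61.0% and 57.9% in Wilmar-P molasses. The laboratory peaks assigned to rst2 were in the coding exon of cdc48 (2.37 and 2.30) and in that of rst2 (1.86 and 1.94). Wilmar-P molasses also had 3 peaks in cdc48 coding sequence, of 2.18 and 1.66 in replicate 1 and of 1.64 in replicate 2.

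The rst2 site was also read against scr1 within each list. In Wilmar-P molasses the rst2 enrichment was 0.203 and 0.195 of that at the scr1 distal site. In Wilmar-P glucose replicate 1, the only other list with the site, the ratio was 0.195. The weakest peak of a laboratory list had an enrichment of 1.23 (replicate 1) or 1.27 (replicate 2), and that of a glucose list 1.78 or 1.94. The lists end by q-value and not by enrichment, and the part of list depth in the absence of the site was not tested. The rst2 site was in the class of Wilmar-P molasses replicate 1 peaks outside coding exons with an enrichment of 5 to 10. A peak counted as found in a list that had a summit within 200 bp of its own. Of 154 peaks in the class, 14.9% were found in both laboratory lists. The same share, 14.9%, was found in both glucose lists. By this rule, most Wilmar-P molasses peaks of that size were missing from at least 1 list of each other group, as at rst2.

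rsv1 (SPBP4H10.09, chrII:2888450-2889979, plus strand) had an upstream site in all 6 lists. Its summits lay 1258 to 1278 bp upstream, in the non-coding RNA gene SPNCRNA.5867. The annotation of rsv1 begins at the start codon, so this distance is not from a transcription start. Measured from the start codon, the proximal sites lay 1473 to 1506 bp upstream at rst2, 1336 to 1414 bp at ssn6 and 1707 to 1739 bp at scr1. Enrichment at rsv1 was 26.5 and 18.3 in Wilmar-P molasses, against 3.83 and 3.39 in laboratory molasses and 8.65 and 7.75 in Wilmar-P glucose. The laboratory values were the lowest, as at the scr1 proximal site but not at the ssn6 proximal one. Over all shared regions the median log2 enrichment was also higher in Wilmar-P molasses. The shift was 1.29 against laboratory molasses and 1.496 against Wilmar-P glucose, so higher raw values there do not set rsv1 apart. Within each list, rsv1 reached 0.660 and 0.603 of the scr1 distal enrichment in Wilmar-P molasses, against 0.279 and 0.285 in laboratory molasses. In Wilmar-P glucose it reached 0.729 and 0.837. The order of rsv1 and ssn6 also differed: rsv1 over the ssn6 proximal site was 1.22 and 1.31 in Wilmar-P molasses, 0.729 and 0.681 in laboratory molasses and 1.98 and 1.77 in Wilmar-P glucose. Multiplying a whole list by a factor leaves these ratios unchanged. Differences between lists of another form can change them, and their part was not tested. With 2 lists against 2 an exact permutation test cannot give a p-value below 0.333, and none was run. A site in the 3′ UTR of rsv1, whose nearest protein-coding start is that of rbd3, was found in Wilmar-P molasses alone, at 5.67 and 4.37.

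**Figure D2:**
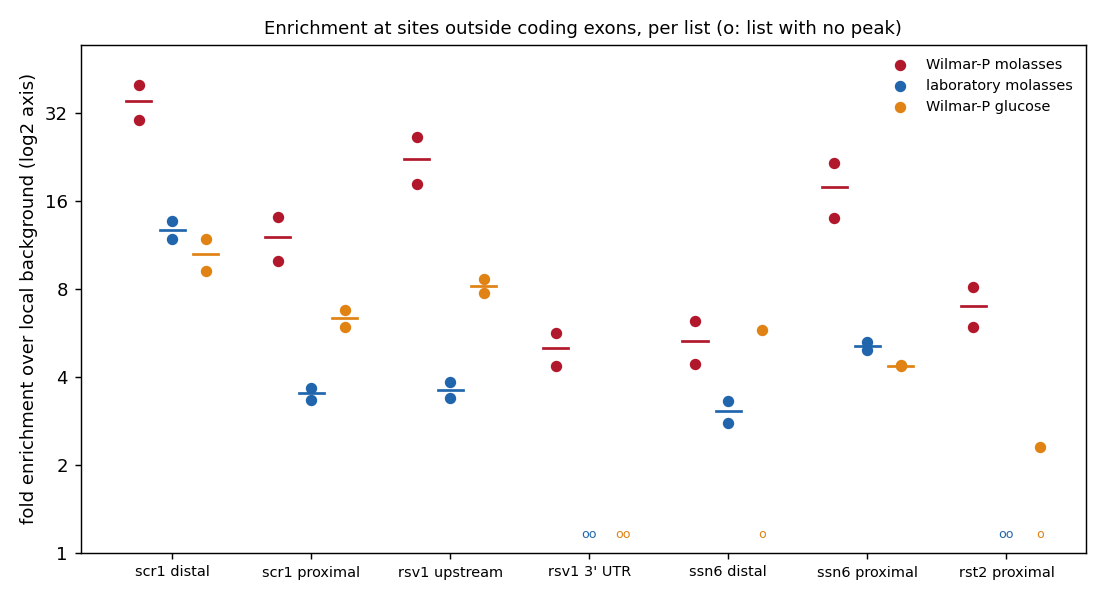
Fold enrichment over local background (log2 axis) at 7 sites outside coding exons (all but the scr1 5′ UTR site, listed in laboratory molasses alone at 1.55 and 1.48), for Wilmar-P molasses (red), laboratory molasses (blue) and Wilmar-P glucose (orange). Points are single lists, bars are means of 2 lists and small circles at the foot count lists with no peak; the Wilmar-P molasses points lie above the others at each plotted site but the ssn6 distal one, where glucose replicate 2 (5.78) lies between them.

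Counted over both replicates of a group, 4 of the 6 genes had a peak in Wilmar-P molasses (scr1, ssn6, rst2 and rsv1), beside 17.6% of all 5113 genes. All 6 had one in laboratory molasses, beside 69.3% of all genes, and 3 in Wilmar-P glucose (scr1, ssn6 and rsv1), beside 4.93%. With summits in coding exons left out, a choice made after the values were seen, the counts were 4 in Wilmar-P molasses, beside 13.1% of all genes, against 3 in laboratory molasses, beside 5.4%, and 3 in Wilmar-P glucose, beside 4.6%. The same 3 genes, scr1, ssn6 and rsv1, had such peaks in all 6 lists, beside 3.72% of all genes. The windows of the genes, 3530 to 6753 bp, were longer than the median of all genes, 3773 bp, in all but rsv1.

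Coding peaks at the 6 genes had low enrichment. The 20 peaks with a summit in a coding exon had an enrichment of 1.44 to 2.37, while the 36 others had 1.48 to 40.1. The pooled median widths were 959.5 bp for coding peaks and 455.5 bp for the others, but the order differed by group. In the laboratory lists the medians were 1055 bp (coding) and 336.5 bp (others). In Wilmar-P molasses they were 432 bp, from 3 coding peaks, and 675.5 bp. Of the coding peaks, 17 were in the laboratory lists. Over all genes, 91.1% and 91.9% of the laboratory summits lay in coding exons, compared with 25.9% and 34.9% in Wilmar-P molasses and 35.5% and 8.77% in Wilmar-P glucose. Whether these peaks depend on Scr1 was not tested. Just inside the upstream limit lay the cdc48 peak of the laboratory lists, 1919 and 1932 bp from rst2. Just outside it, at 2504 and 2499 bp from rsv1, Wilmar-P molasses had peaks of 5.97 and 4.10.

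**Figure D3:**
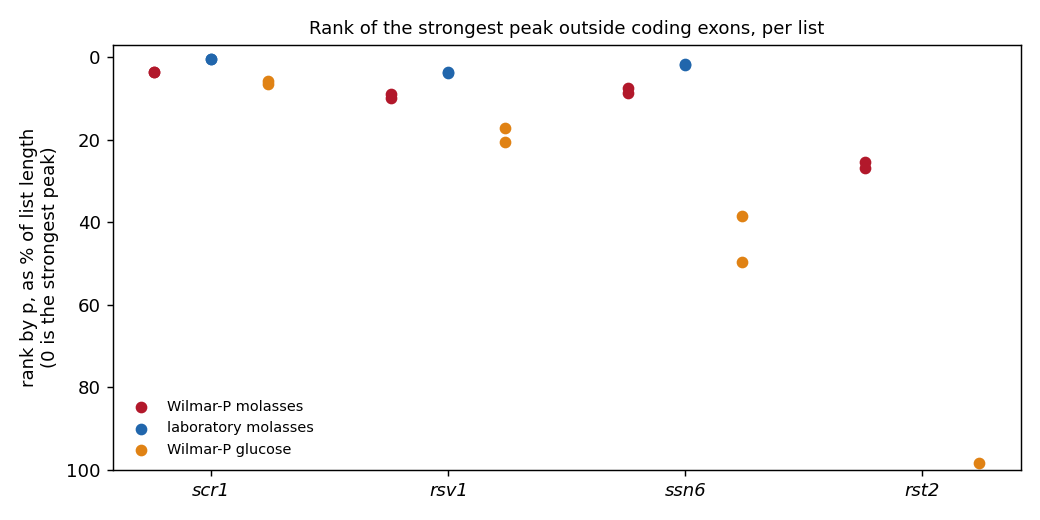
Rank by p-value of the strongest peak outside coding exons at scr1, rsv1, ssn6 and rst2, as a percentage of the length of its list (0, at the top, is the strongest peak), for Wilmar-P molasses (red), laboratory molasses (blue) and Wilmar-P glucose (orange). Each point is 1 list; rst2 stands at 27.0% and 25.5% in Wilmar-P molasses and at 98.4% in glucose replicate 1, and has no point for laboratory molasses.

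Differences in enrichment were then set against all regions called in every list of a comparison, with each list centred on its median. Before centring, the median log2 enrichment was higher in Wilmar-P molasses by 1.29 over the 384 regions shared with laboratory molasses and by 1.496 over the 184 regions shared with Wilmar-P glucose. Both comparisons use the same Wilmar-P molasses lists. Against laboratory molasses, the rsv1 upstream region was higher by 1.32 ± 0.16 (SE) on the log2 scale relative to the median region (limma with Benjamini-Hochberg adjustment, adjusted p = 4.04e-15), above 92.4% of the regions. It was higher under every alternative tried, with a log2 difference of 0.57 when the comparison was confined to regions outside coding exons. A region was placed inside or outside coding exons by its summit in Wilmar-P molasses replicate 1 alone. The scr1 distal region differed by 0.15 ± 0.16 (limma adjusted p = 0.355), the scr1 proximal region by 0.47 ± 0.16 (0.00438) and the ssn6 proximal region by 0.48 ± 0.16 (0.00374). Against regions outside coding exons alone, these 3 lay below the median region, by log2 differences of -0.59 (limma adjusted p = 0.00216), -0.28 (0.0555) and -0.27 (0.0978). Their direction thus depended on which regions set the centre. The calls were also lost without Wilmar-P molasses replicate 1 at the scr1 proximal (0.35, limma adjusted p = 0.069) and ssn6 proximal (0.29, 0.13) regions, and without laboratory replicate 2 at the scr1 proximal region (0.41, 0.0614). In such fits the lone list of a group is assumed to vary like the pair of the other. The ssn6 distal region was lower at -0.51 ± 0.16 (limma adjusted p = 0.00201), a call lost without laboratory replicate 1 (-0.40, 0.0686), and the region over cdc48 coding sequence at -1.60 ± 0.16 (5.22e-21). Both depended on centring: without it, the ssn6 distal region was higher by 0.79 (limma adjusted p = 0.000248), and the cdc48 region, at -0.30, was not called (0.191). The test called 88.0% of the 384 regions, 153 higher and 185 lower, so a call there does not set a member region apart. Without centring it called 242 higher and 8 lower, and with regions outside coding exons 50 higher and 94 lower of 227. In the centred fit over all 384 regions, limma estimated a common variance and gave every region the same standard error, on which its p-values rest. In each group both lists were called against the same 1 input. The spread between replicates thus leaves out variation of the input, which the difference between groups includes.

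Against Wilmar-P glucose, none of the 4 shared member regions passed the test, while it called 18.5% of the 184 regions, 8 higher and 26 lower. The ssn6 proximal region differed by 0.50 ± 0.17 (limma adjusted p = 0.0983), the scr1 distal region by 0.24 ± 0.22 (0.444), rsv1 by -0.07 ± 0.18 (0.781) and the scr1 proximal region by -0.59 ± 0.16 (0.061). At an unadjusted p of 0.05, 70 regions would be called, the ssn6 and scr1 proximal regions among them. Without centring, 158 regions were called, all higher in Wilmar-P molasses, with the 4 member regions among them. With 1 glucose list left out, the spread came from the Wilmar-P molasses lists alone and the remaining glucose list was assumed to vary like them. The standard error at the scr1 distal region was then 0.07, against 0.22 with all lists. On that assumption the scr1 distal (0.47, limma adjusted p = 0.0133), scr1 proximal (-0.63, 0.00807) and ssn6 proximal (0.55, 0.0299) regions were past the threshold without glucose replicate 1, and the scr1 proximal region was without glucose replicate 2 (-0.54, 0.0163). The count of called regions was 6 and 9 without Wilmar-P molasses replicate 1 and 2, and 120 and 87 without glucose replicate 1 and 2. The rst2 site was not called in all lists and could not enter either comparison.

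**Figure D4:**
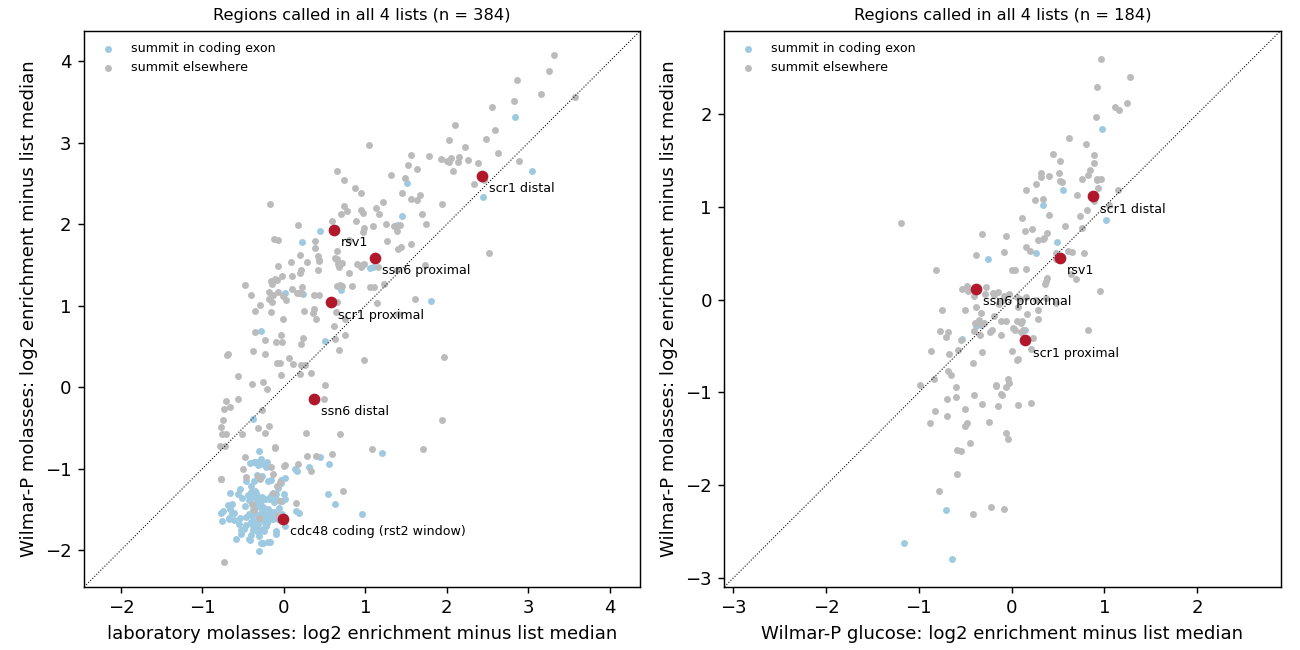
Log2 fold enrichment minus the list median, averaged over 2 lists, for regions called in all 4 lists of a comparison: Wilmar-P molasses (vertical axis) against laboratory molasses (left, 384 regions) and against Wilmar-P glucose (right, 184 regions). Pale blue points are regions with a coding summit in Wilmar-P molasses replicate 1, grey points other regions and red points the member regions. The dotted line marks equal values. rsv1 lies 1.32 above the line on the left and 0.07 below it on the right. The coding regions form a cluster below the line on the left.

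Other genes of the pathway were examined by the same rule, with summits outside coding exons in both replicates. Of 12 glucose signalling genes, 4 had a peak in Wilmar-P molasses (git3, gpa2, cgs1 and cgs2), against 2 in laboratory molasses (git3 and cgs2) and 4 in Wilmar-P glucose. At gpa2 the strongest summits differed in place between the media. They lay at -1129 bp from the gene start in both Wilmar-P molasses lists (3.94 and 2.89). In Wilmar-P glucose they lay at -836 and -849 bp (6.84 and 4.29). Only the strongest peak of each list was read there, so a weaker peak at the other place may also be listed. cgs2, which encodes the cAMP phosphodiesterase, had an enrichment of 18.1 and 13.0 in Wilmar-P molasses, against 4.33 and 3.88 in laboratory molasses and 5.84 and 6.20 in Wilmar-P glucose. cgs1, the regulatory subunit of Pka1, had 7.90 and 6.40 in Wilmar-P molasses, against no such peak in laboratory molasses and 4.43 and 3.67 in Wilmar-P glucose. pka1 itself, the adenylate cyclase gene cyr1 and the kinase genes ssp1 and ssp2 had no such peak in any list. Of 7 glucose-repressed genes, 6 had a peak in Wilmar-P molasses, against 4 in laboratory molasses and 5 in Wilmar-P glucose. inv1, the invertase gene, had 12.8 and 9.05 in Wilmar-P molasses, against 6.45 and 5.98 in laboratory molasses and 3.64 and 3.53 in Wilmar-P glucose. fbp1, a target shared by Scr1 and Rst2, had a peak in 1 list of each molasses group, of 1.66 in Wilmar-P and 1.38 in the laboratory strain. ste11, a target of Rst2, had 2.69 and 2.26 in Wilmar-P molasses, against no such peak in either of the other groups. These summits lay at -1251 and -1235 bp from the gene start (negative is upstream). They were weak: the median over genes with such a peak was 5.61 and 4.56 in the same lists. The paper did not find Scr1 at the ste11 promoter in Wilmar-P on molasses. Its peaks were detected with IDR correction across replicates, whereas the lists read here hold all peaks called in single replicates. The 2 results thus rest on unlike thresholds. Counts for 5113 genes by the same rule are the shares of 13.1%, 5.4% and 4.6% given above.

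The genes most like a member had peaks in the same lists and the smallest mean difference in rank percentile. Genes whose strongest peak in any list was the member's own were passed over, but the numbers of genes given here include them. For scr1 the nearest of 240 genes was ptr2 (1.03 percentage points over 6 lists), a peptide transporter gene, and for rsv1 acp2 and bdf2 tied (1.66). For ssn6 SPBC12C2.14C and SPBC12C2.03C tied (1.93). Genes whose windows hold the same strongest peaks get equal values, and whether the tied genes do was not examined. For rst2 the nearest of 98 genes was zrt1 (5.12 over 5 lists), where the laboratory values of rst2 are those of coding peaks.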

How the data were processed

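Peak lists of tagged Scr1 were analysed for 3 groups with 2 replicates each, grouped by their titles. The growth protocol in the labels names other media than molasses, and the treatment label was followed. The other 9 samples of the series were not analysed here. Per the labels and methods, the authors trimmed reads, aligned them with Bowtie2 2.3.1 to ASM294v2 and called peaks with MACS2 2.1.1 for each replicate against 1 input per condition. Wilmar-P reads were thus placed on the reference genome. Reads were 75 bp single-end or 100 bp paired-end, and which lists came from which is not given in the sources used here. The deposited fold enrichment is a ratio to the local background, and the deposited significance is −log10 p and −log10 q. The lists end at a −log10 q of 2.00 to 2.43. Read depth is unknown, so enrichments were compared with ranks, with ratios within a list or after centring.

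The 6 genes and the lists of other genes were chosen with earlier results of these data known. Gene positions and sequences came from RefSeq ASM294v3. No peak on the 3 chromosomes ran past their ends in it, and its sequence was not compared with ASM294v2. Peaks on other sequences were left out. Regions overlapping by at least 1 bp across the 4 lists of a comparison were merged, the strongest peak of each list was taken, and log2 enrichment without a pseudocount was centred on the list median and fitted with limma 3.58.1 (two-sided, Benjamini-Hochberg adjustment over all shared regions, threshold 0.05). Regions missing from any of the 4 lists could not enter. IDR was refitted on the p-values of regions called in both replicates. The limma and IDR fits were run on simulated data of a set form, which checks the code and not whether their assumptions hold for these lists. Named genes were the 6 members, fixed lists of glucose signalling and glucose-repressed genes, and genes of like pattern. A further fixed gene list is not reported here. Alternatives varied the upstream limit, peak threshold, list length, IDR filter, gene assignment, normalization, region matching, a replicate block and each replicate. The methods state that each culture was split between the media, but not that the replicate number marks the culture.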

Additional observations from a re-analysis of the deposited data

How the results depend on the processing

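The count of genes with a peak in both replicates stayed at 4 in Wilmar-P molasses under all alternatives but lists of equal length (228 peaks each), which left out rst2. In laboratory molasses it was 6, and 3 with a fold enrichment of at least 2.5, 3 with lists of equal length and 3 with summits outside coding exons, an alternative added after the values were seen. In all 3 cases these were scr1, rsv1 and ssn6. It was 4 with an IDR of at most 0.05 (without tup11 and tup12), 5 with upstream limits of 1000 and 500 bp (without rsv1) and 5 when the gene had to be the nearest start (without tup11). In Wilmar-P glucose it was 3, and upstream limits of 1000 and 500 bp left out rsv1. In Wilmar-P molasses rsv1 was kept at these limits by its 3′ UTR peak alone. With 1 replicate left out, the counts ranged from 4 to 4 in Wilmar-P molasses, from 6 to 6 in laboratory molasses and from 3 to 4 in Wilmar-P glucose. The IDR refit placed all 200 glucose regions in the reproducible component and so filtered none there.

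Against laboratory molasses, 338 regions were called, and 165 after quantile normalization, 193 of 272 with regions matched by summits within 200 bp and 144 of 227 outside coding exons, where fewer regions were tested. With 1 replicate left out the count ranged from 313 to 333. Under these 3 settings, in the order given, the log2 difference reversed at the scr1 distal (-0.43, -0.55 and -0.59), scr1 proximal (-0.24, -0.24 and -0.28) and ssn6 proximal (-0.23, -0.23 and -0.27) regions. Without centring it reversed at the ssn6 distal region (0.79). Against Wilmar-P glucose, 34 regions were called, and 158 without centring and 1 after quantile normalization. With 1 replicate left out the count ranged from 6 to 120, as given in the report. Without centring the difference reversed at rsv1 (1.43) and at the scr1 proximal region (0.91). The region over cdc48 coding sequence was no longer called without centring (-0.30), where the scr1 distal region was called (1.45). The cause of these changes was not tested. With a replicate block, 348 and 31 regions were called, and no call at a member region changed. The deviations of replicate 1 in the 2 groups correlated at 0.313 in the comparison with laboratory molasses and at 0.0583 in that with Wilmar-P glucose, over regions that are not independent.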
